A study of Mus musculus with 4 samples.

Results

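The genes described here are 34 genes of DNA replication and mitosis, chosen by name as a cell cycle module and read from the array through the platform's gene symbols. Each gene was represented by its brightest probe set with 1 gene symbol, and 33 of the 34 had one, out of 17097 genes measured in this way. Ccnb1, which encodes cyclin B1, had none and is not described further. The module was divided into 12 replication genes (Mcm2 to Mcm7, Pcna, Rrm1, Rrm2, Tyms, Ccne1 and Ccne2) and 22 mitosis genes, of which 21 were measured.

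Expression was measured with an Affymetrix mouse microarray in mammary gland cells taken 3 days after transplantation into mice, in a study of collagen signalling, matrix stiffness and multipotency. The BC alone group received 10000 BC cells, the condition the labels call multipotent, and the control group received 2000 BC cells together with 8000 LC cells, called unipotent. BC and LC are abbreviations that the labels leave unexplained (basal and luminal cells is the usual reading), and no strain, genotype, age or sorting gate is given. Each group had 2 arrays, each made from 50 sorted cells, and nothing says that they came from separate animals, so the spread behind the p-values may be technical. A lower value in such a small bulk sample cannot be told apart between fewer cycling cells and less RNA in each of them.

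Dividing cells copy their DNA in S phase and separate the copies in mitosis. The products of Mcm2 to Mcm7 form the helicase that is loaded on replication origins before S phase, Pcna is the sliding clamp of the polymerases, ribonucleotide reductase (Rrm1 and Rrm2) and thymidylate synthase (Tyms) supply nucleotides, and cyclin E (Ccne1 and Ccne2) drives entry into S phase. Most mitosis genes peak later, in G2 and M, and are read in tissue as marks of cycling cells, Mki67 being the best known. Replication genes are classically activated through E2F sites, and mitotic genes through the CHR element together with CCAAT boxes, which are bound by the MuvB complex and by NF-Y.

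The promoters of both classes are shown because they differ in CHR and E2F matches, though little in CCAAT boxes. The genes were chosen by name and not by sequence, but the motifs searched are those already known for these classes. For the 27 measured genes that RefSeq's promoter table held (build GRCm38.p6, 250 bases before to 50 after the start), 10 replication genes had 11 windows and 17 mitosis genes had 17. A CHR, searched as TTTGAA or TTCGAA on both strands, was present in 14 of the 17 mitosis windows (82.4%) and 2 of the 11 replication windows (18.2%), against 19.2% of all 32851 windows. A CCAAT box, searched as CCAAT on both strands, was present in 15 mitosis windows (88.2%) and 9 replication windows (81.8%), against 37.4% of all windows. An E2F site, searched as TTTCCCGC, TTTGGCGC or TTTCGCGC on both strands, was present in 4 replication windows (36.4%), those of Mcm3, Mcm5, Mcm6 and Mcm7, and in 1 mitosis window (5.88%), that of Cdk1, against 1.84% of all windows. The 14 mitosis windows with a CHR were the same as those with both a CHR and a CCAAT box, which 7.52% of all windows held. These matches describe letters and are no evidence of binding, and matches of one motif may overlap on the opposite strands. The 4 windows printed are those of the 2 genes of each class with the largest difference between the groups for which the table held a sequence, 5′ to 3′ on the gene's strand, with matches in capitals.
Mcm3, replication, minus strand, chr1:20820263-20820562: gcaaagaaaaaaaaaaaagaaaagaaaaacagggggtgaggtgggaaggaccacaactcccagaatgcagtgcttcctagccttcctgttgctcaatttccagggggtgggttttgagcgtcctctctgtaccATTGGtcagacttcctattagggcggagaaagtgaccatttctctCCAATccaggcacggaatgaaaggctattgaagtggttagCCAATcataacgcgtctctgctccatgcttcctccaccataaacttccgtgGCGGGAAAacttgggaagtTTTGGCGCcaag
Pcna, replication, minus strand, chr2:132253131-132253430: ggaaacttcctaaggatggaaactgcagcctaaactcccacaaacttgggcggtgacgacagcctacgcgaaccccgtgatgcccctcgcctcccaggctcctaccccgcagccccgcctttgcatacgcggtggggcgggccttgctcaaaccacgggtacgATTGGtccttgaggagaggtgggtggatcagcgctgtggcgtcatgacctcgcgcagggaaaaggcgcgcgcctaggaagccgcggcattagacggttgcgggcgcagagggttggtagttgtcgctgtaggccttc
Cdk1, mitosis, minus strand, chr10:69352863-69353162: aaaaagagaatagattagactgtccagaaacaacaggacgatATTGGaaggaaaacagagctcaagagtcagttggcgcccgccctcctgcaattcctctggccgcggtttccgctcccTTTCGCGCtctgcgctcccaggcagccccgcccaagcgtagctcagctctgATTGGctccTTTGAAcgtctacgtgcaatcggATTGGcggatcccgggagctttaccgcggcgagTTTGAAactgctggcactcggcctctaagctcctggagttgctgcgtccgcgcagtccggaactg
Cenpe, mitosis, plus strand, chr3:135212313-135212612: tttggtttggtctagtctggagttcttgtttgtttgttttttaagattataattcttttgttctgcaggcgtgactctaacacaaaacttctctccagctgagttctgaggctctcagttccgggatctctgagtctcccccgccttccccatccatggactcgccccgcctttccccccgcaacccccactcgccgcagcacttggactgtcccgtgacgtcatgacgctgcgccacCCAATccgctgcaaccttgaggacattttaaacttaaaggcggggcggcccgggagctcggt
The Mcm3 window held 3 CCAAT boxes and 2 E2F sites, that of Cdk1 2 CHR elements, 3 CCAAT boxes and 1 E2F site, and those of Pcna and Cenpe 1 CCAAT box each and neither of the others.

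The arrays were not alike, which bears on every value below. Control replicate 2 had a compressed range, with an SD of 1.443 log2 over all probe sets against 1.897 to 1.92 on the other arrays, and correlated with them at 0.911 to 0.915 over genes, where the other 3 correlated at 0.967 to 0.971 with each other (genes are not independent replicates). Its median over all probe sets was 4.62 against 4.37 to 4.38. RMA normalizes probes before it summarises them, so probe set distributions can differ even after all 4 arrays are normalized together. Whether they were normalized together is not known, which bears on every difference from the control. The basal marker list (Krt5, Krt14, Trp63, Acta2, Myh11 and Oxtr) had a median of 10.26 and 9.83 in BC alone and 10.14 and 6.23 on control replicates 1 and 2, and the luminal list (5 of 6 measured) had 9.32, 9.68, 9.67 and 7.54 in the same order. Krt5, Krt14, Trp63, Acta2 and Myh11 were bright on 3 arrays and far dimmer on control replicate 2, while Oxtr lay between 5.16 and 5.98 on all 4. The fibroblast list had medians of 7.56 and 7.79 in BC alone and 6.25 and 4.67 in the control, with all 6 members higher on average in BC alone. The endothelial list had medians of 5.84 and 6.64 in BC alone and 5.78 and 5.35 in the control, the macrophage list 5.12 and 6.93 against 6.34 and 5.31, the pericyte list 8.41 and 7.78 against 6.20 and 6.94, the lymphocyte list 4.44 and 4.145 against 3.92 and 4.18, and the erythroid list (3 of 5 measured) 4.03 and 4.42 against 5.16 and 5.09. Bacterial spike-ins had medians of 7.83 and 8.55 in BC alone and 8.77 and 9.44 in the control, and the 3′ minus 5′ signal of the beta-actin control probe sets lay between -0.44 and -0.35 on all 4 arrays. The 3′ minus 5′ signal of Gapdh was 0.00 on control replicate 2 and -0.23 to -0.17 elsewhere. The part of other cell types, spike-ins and RNA quality in the results below was not tested.

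None of the replication and mitosis genes passed the test between BC alone and the control, and the arrays of a group often differed more than the groups did. In limma, fitted over all 17097 genes with Benjamini-Hochberg adjustment, 0 of the 33 members passed an adjusted p of 0.05, where 0.0% of all genes did, and the smallest adjusted p among members was 0.842. At an unadjusted p under 0.05 the count of members was also 0, against 3.98% of all genes, and the smallest unadjusted p was 0.098, for Mcm3. No member combined a 2-fold difference with groups that did not overlap, against 5.69% of all genes (4.79% higher in BC alone and 0.895% lower). Of those 972 genes 84.3% were higher, a split that came to 54.4% under quantile normalization, 56.5% under cyclic loess and 51.2% without control replicate 2. Groups without overlap were found for 6 members (18.2%), against 36.4% of all genes. They were Mcm3, Mcm4, Mcm7 and Top2a, which lay higher on both BC alone arrays, where 16.8% of all genes did, and Cenpe and Cenpf, which lay lower, where 19.6% did. With 2 arrays a group, the smallest two-sided p that an exact permutation test can reach is 0.333.

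The absence of a call does not show that the groups were alike. The 95% interval of the difference (limma, unadjusted) included 0 for all 33 members, but it stayed within 2-fold in both directions for only 6 of them, Ccne2, Top2a, Bub1, Plk1, Birc5 and Nusap1. The tightest interval was that of Top2a, reaching 0.731 log2 to each side of the difference, and the widest that of Mcm5, reaching 1.823. For the other 27 members a 2-fold difference in at least 1 direction lay within the interval. The small number of arrays limits this precision. Of the 6 genes with the narrower intervals, all but Plk1 lay at or below the median level of all genes, 4.967 on the arrays other than control replicate 2. No detection calls tell whether such dim values stood above background, so a narrow interval there need not limit a difference in expression.

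**Figure D1:**
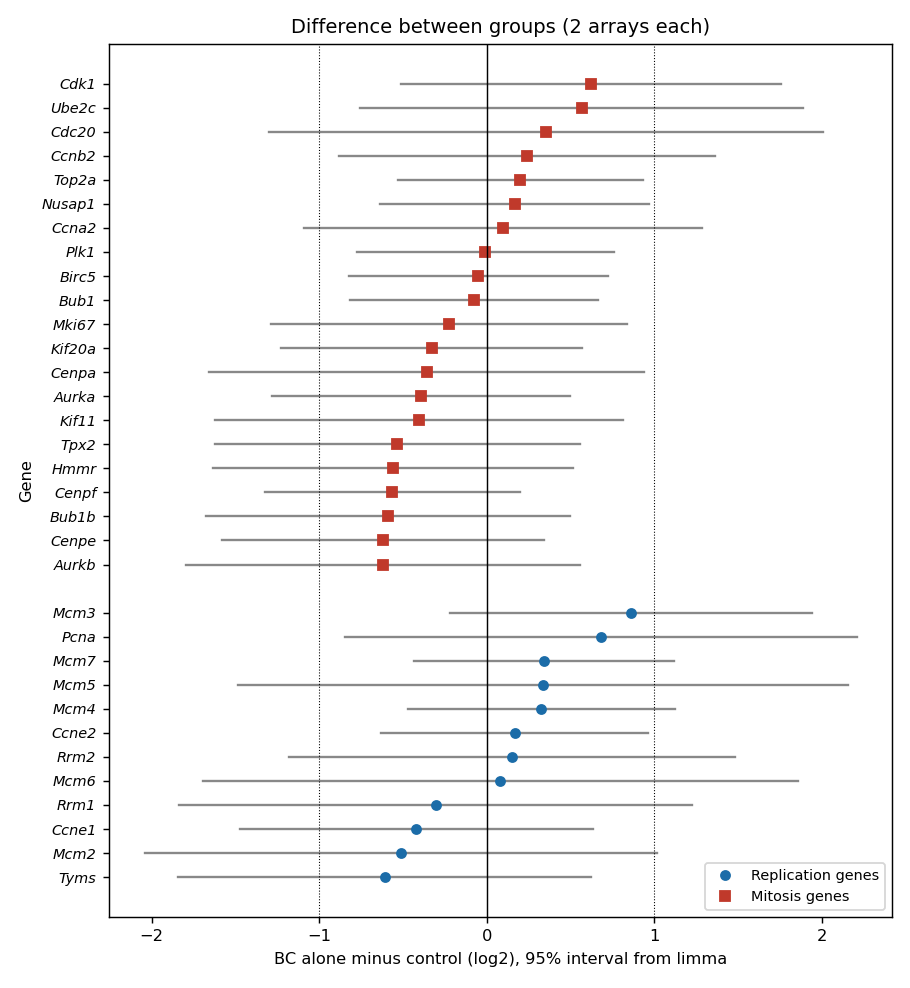
Difference of each gene between BC alone and control, as BC alone minus control on the log2 scale, with the 95% interval from limma as a grey line; circles are replication genes, squares mitosis genes, and dotted lines mark 2-fold. All 33 intervals cross 0, and the points run from -0.62 for Aurkb and Cenpe to 0.86 for Mcm3.

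Among the replication genes, the helicase subunits did not move as a unit. Mcm3 had log2 expression values of 7.40 and 6.35 on the BC alone arrays and 5.95 and 6.08 on the control arrays. Both BC alone arrays were above both controls, but they differed from each other by 1.05, more than the 0.86 ± 0.43 (SE) between the groups (limma, adjusted p = 0.842). A dimmer probe set of Mcm3 went the other way, at -0.835, and the mean of the probe sets differed by 0.012. Mcm4 had 5.06 and 5.48 in BC alone against 4.96 and 4.93, and Mcm7 had 5.75 and 6.09 against 5.56 and 5.60. These were small gaps of 0.325 ± 0.32 and 0.34 ± 0.31 (SE), and the other probe set of Mcm7 was at -0.12. Mcm3, Mcm4 and Mcm7 were also the helicase genes on which the control arrays lay closest together, within 0.03 to 0.13.

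The other 3 helicase genes were split by the control arrays. Mcm2 had 5.35 and 4.76 in BC alone and 6.41 and 4.73 on control replicates 1 and 2. Mcm5 had 7.96 and 7.42 in BC alone and 8.43 and 6.28 on control replicates 1 and 2. Mcm6 had 5.79 and 6.71, against 7.14 and 5.20. In each case control replicate 1 was the highest of the 4 arrays and control replicate 2 the lowest, with the BC alone arrays between them. The other probe set of Mcm2 kept this order, and the dim one of Mcm5, at 3.00 to 3.27, did not. The control arrays were 1.68, 2.15 and 1.94 apart, while the group differences of Mcm2, Mcm5 and Mcm6 were -0.515, 0.335 and 0.08.

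On the probe sets used, the same order was found for the clamp and for both subunits of ribonucleotide reductase. The other probe set of each subunit did not show it. That of Rrm1 had 5.96 and 6.08 in BC alone against 6.73 and 6.33, lower on both BC alone arrays. That of Rrm2 had 6.01 and 5.36 against 5.63 and 4.36, highest on BC alone replicate 1. Pcna had 9.40 and 9.36 in BC alone and 9.59 and 7.81 on control replicates 1 and 2. Rrm1, the large subunit, had 6.60 and 6.36 against 7.67 and 5.90, and Rrm2, the small subunit whose level limits the enzyme in S phase, had 5.73 and 6.48 against 6.59 and 5.32. Tyms had 6.51 and 6.78 in BC alone and 7.90 and 6.61 on control replicates 1 and 2, so that control replicate 1 stood apart and the other 3 arrays lay close together. Group differences were 0.68 ± 0.61 for Pcna, -0.305 ± 0.61 for Rrm1, 0.15 ± 0.53 for Rrm2 and -0.61 ± 0.49 for Tyms (SE, limma, adjusted p = 0.842 to 0.922). The sign of Pcna, Mcm5, Mcm6 and Rrm2 turned without control replicate 2 and under cyclic loess, and that of Mcm2, Rrm1 and Tyms without control replicate 1.

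The cyclin E genes did not follow that order. Ccne1 had 5.21 and 4.74 in BC alone and 4.95 and 5.84 in the control, highest on control replicate 2. Ccne2 had 3.11 and 3.49 against 3.23 and 3.04, values below the median of all genes on every array, with no detection call to say whether it was measured above background. Over all 12 replication genes, 7 were highest on control replicate 1 and 8 lowest on control replicate 2, that is 58.3% and 66.7%, against 19.2% and 34.1% of all genes. All genes are not a like baseline here, since 10 of the 12 lay above the median level of all genes. Of all genes above it, 78.9% were lower on control replicate 2 than the mean of the other arrays. The list's median level was 5.77 and 6.355 in BC alone and 6.50 and 5.72 on control replicates 1 and 2, so the groups overlapped.

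**Figure D2:**
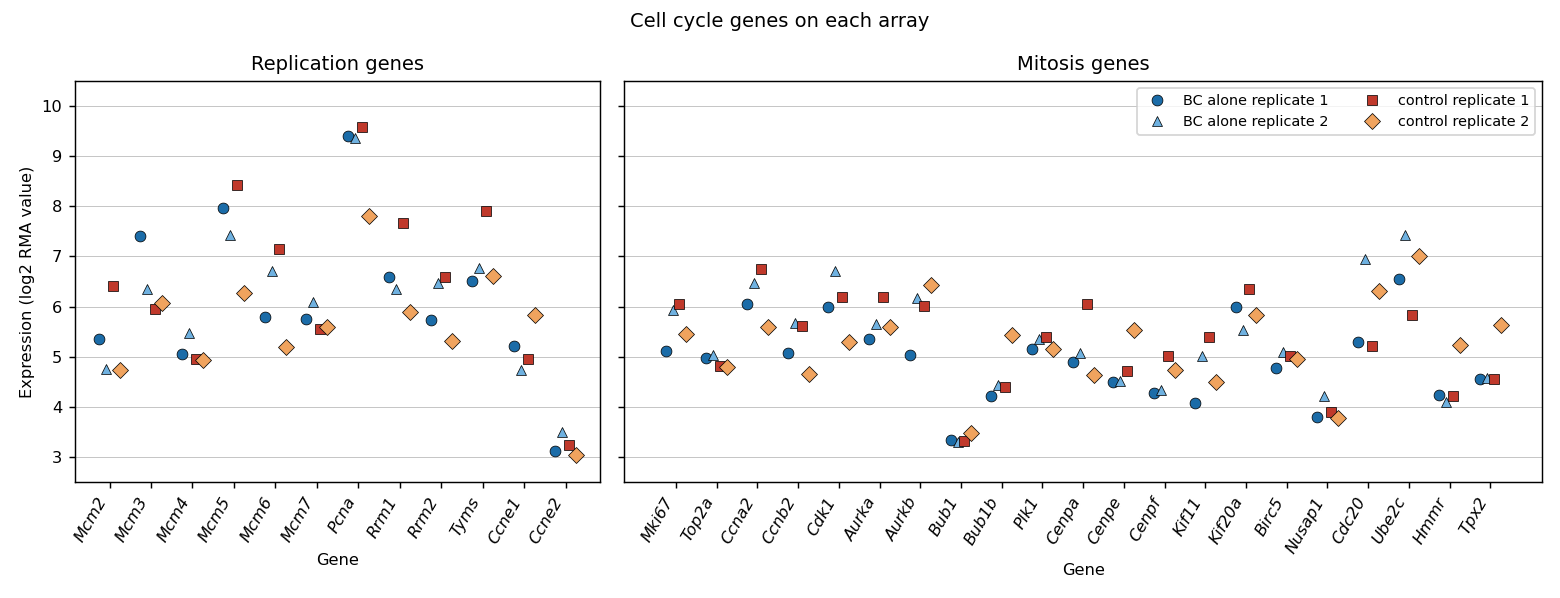
Log2 RMA expression of each gene on each of the 4 arrays, with replication genes on the left and mitosis genes on the right; blue symbols are BC alone, red and orange symbols control. Control replicate 1 is above and control replicate 2 below the BC alone arrays for Mcm2, Mcm5, Mcm6, Pcna, Rrm1 and Rrm2, while Bub1b, Cenpe, Hmmr and Tpx2 are highest on control replicate 2.

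The core mitotic kinase and its cyclins varied within the groups as much as between them. Cdk1, which drives entry into mitosis, had 6.0 and 6.72 in BC alone and 6.19 and 5.29 in the control, and Ccnb2, cyclin B2, had 5.08 and 5.68 against 5.62 and 4.66. Ccna2, cyclin A2, had 6.06 and 6.48 against 6.76 and 5.59. For all 3 control replicate 2 was the lowest array, and control replicate 1 lay within or above the range of the BC alone arrays. The differences were 0.62 ± 0.45, 0.24 ± 0.45 and 0.095 ± 0.47 (SE). Mki67 had 5.11 and 5.94 in BC alone and 6.05 and 5.45 in the control, a difference of -0.225 ± 0.42 with overlapping groups. Top2a, which untangles the copied DNA, had 4.98 and 5.03 against 4.82 and 4.79, with 0.05 and 0.03 between the arrays of a group and a difference of 0.20 ± 0.29 (limma, adjusted p = 0.848), and both of its dimmer probe sets went the other way, at -0.25 and -0.235.

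Several checkpoint and spindle genes stood apart on control replicate 2 alone. Bub1b, the BubR1 checkpoint protein, had 4.22 and 4.44 in BC alone and 4.40 on control replicate 1, but 5.44 on control replicate 2. Hmmr, a spindle assembly factor, had 4.24 and 4.09, then 4.21 and 5.24. Tpx2, the activator of Aurora A, had 4.55 and 4.57, then 4.56 and 5.63. On these genes the other 3 arrays were nearly level, and the differences of -0.59, -0.56 and -0.535 became -0.07, -0.045 and 0.00 without it. The 3 probe sets of Bub1b and the 5 of Hmmr all had a negative difference, while the dimmer one of Tpx2 was at 0.11. A dimmer probe set of Hmmr was highest on control replicate 1, however, with 3.76 and 3.88 in BC alone against 4.34 and 3.99.

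Cenpf and Cenpe, both of the outer kinetochore, were the mitosis genes that lay lower on both BC alone arrays than on either control. Cenpf had 4.27 and 4.34 against 5.01 and 4.73, a difference of -0.565 ± 0.30 that was -0.705 against control replicate 1 alone. Cenpe had 4.50 and 4.51 against 4.71 and 5.54, at -0.62 ± 0.38, and -0.205 against control replicate 1 alone (SE, limma, adjusted p = 0.842 for both over all arrays). A dimmer probe set of each had the opposite sign, at 0.14 for Cenpf and 0.105 for Cenpe. Cenpa, the centromeric histone, had 4.90 and 5.07 in BC alone but 6.05 and 4.64 in the control, the order found for Mcm2 and 5 other replication genes. Its dimmer probe set did not show that order, with 4.33 and 4.10 against 4.32 and 4.45. Kif11, the kinesin that pushes spindle poles apart, had 4.07 and 5.01 against 5.39 and 4.50, and Kif20a, a kinesin of cytokinesis, 5.99 and 5.54 against 6.36 and 5.83. The BC alone arrays of Kif11 were themselves 0.94 apart, more than the group difference of -0.405.

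Among the kinases, Aurka of the spindle poles had 5.35 and 5.66 in BC alone and 6.20 and 5.60 in the control. Aurkb, of the chromosomal passenger complex, had 5.03 and 6.18 against 6.02 and 6.43, and BC alone replicate 1 stood below the other 3 arrays. Without it the difference of Aurkb, -0.62, was -0.045. A dimmer probe set of Aurkb was at 0.345. Plk1, the Polo-like kinase, had 5.16 and 5.36 against 5.39 and 5.15, and Bub1, a checkpoint kinase, 3.34 and 3.29 against 3.31 and 3.47. Birc5, or survivin, a partner of Aurkb, had 4.78 and 5.10 against 5.02 and 4.96, and Nusap1, a spindle protein, 3.79 and 4.21 against 3.89 and 3.78. These last 4 differed by -0.075 to 0.165, with intervals inside 2-fold.

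Cdc20 and Ube2c, which act with the anaphase-promoting complex at mitotic exit, were both higher on replicate 2 than on replicate 1 in each group. Cdc20 had 5.30 and 6.94 in BC alone and 5.22 and 6.31 in the control, and Ube2c had 6.55 and 7.43 against 5.84 and 7.01. The replicates were apart by 1.64 and 1.09 for Cdc20 and by 0.88 and 1.17 for Ube2c. The group differences were 0.355 ± 0.66 and 0.565 ± 0.53 (SE). Over genes as a whole the deviations of same-numbered arrays had a correlation of -0.018. With 2 arrays a group this only sets the gap in BC alone against the gap in the control, and cannot exclude pairing. The labels do not pair the arrays, so the numbers are not read as pairs.

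The mitosis list as a whole had 7 members with a higher and 14 with a lower mean in BC alone, and a median difference of -0.225, against -0.04 over all genes, of which 7991 were higher and 9037 lower. The replication list had 8 higher and 4 lower, and a median difference of 0.158. Against control replicate 1 alone the medians were -0.348 for replication genes and -0.13 for mitosis genes, with 0.005 over all genes, and against control replicate 2 alone they were 0.46, -0.02 and -0.055. The replication list also turned to -0.116 under cyclic loess and came to 0.034 under another quantile normalization, while the mitosis list stayed negative under the 3 scalings, at -0.228, -0.10 and -0.278 (all genes -0.024, 0.085 and -0.02) for quantile normalization, median centring and cyclic loess. The signs also depended on the BC alone arrays, since the mitosis list was at 0.065 without BC alone replicate 1 and the replication list at -0.105 without BC alone replicate 2. Whether the 2 lists differed from each other was not tested. For 26 of the 33 members (78.8%) the difference between the groups was smaller than the gap between the 2 control arrays, which was also so for 72.3% of all genes.

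**Figure D3:**
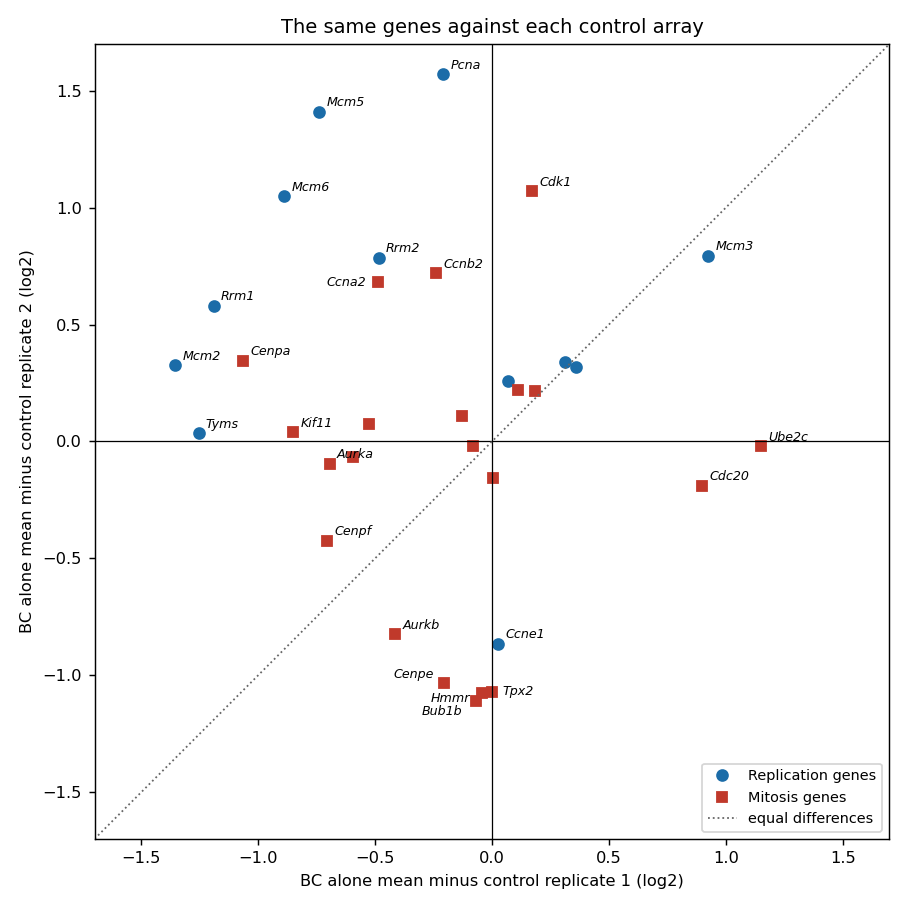
Mean of the BC alone arrays minus control replicate 1 (horizontal) and minus control replicate 2 (vertical), in log2, for each gene; both axes share the BC alone arrays, and the dotted line marks equal differences. Genes such as Pcna, Mcm5, Mcm6, Rrm2, Rrm1, Mcm2, Tyms, Ccna2, Ccnb2, Cenpa and Kif11 lie left of 0 and above 0, whereas Mcm3 is at 0.925 and 0.795 and Cenpf at -0.705 and -0.425.

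Level and direction on control replicate 2 went together. Of the 21 members above the median level of all genes on the other 3 arrays (4.967), 18 were lower on control replicate 2 than the mean of those arrays, among them all 10 replication genes of that kind, with a median shift of -0.862. Of the 12 dimmer members, 7 were higher there and 5 lower. Over all genes 78.9% of the brighter ones were lower and 83.4% of the dimmer ones higher on that array. The direction of most brighter members was that of most bright genes. Level and shift share a term, the mean of the other 3 arrays. That alone tends to place bright genes lower and dim genes higher on the array left out. How much of the split comes from that shared term was not tested, and neither was the source of the shifts. The largest downward shifts were -1.657 for Mcm5 and -1.64 for Pcna, and the largest upward ones 1.087 for Bub1b and 1.07 for Tpx2.

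On the 3 arrays of like range, both BC alone arrays were below control replicate 1 for 16 of the 33 members (48.5%) and above it for 6, against 33.8% and 33.2% of all genes. The 16 were 7 replication genes (Mcm2, Mcm5, Mcm6, Pcna, Rrm1, Rrm2 and Tyms) and 9 mitosis genes (Mki67, Ccna2, Aurka, Plk1, Cenpa, Cenpe, Cenpf, Kif11 and Kif20a). BC alone minus that array was -1.255 for Tyms, -1.355 for Mcm2, -1.19 for Rrm1 and -1.065 for Cenpa. With 1 control array this set had no replicate check in the control group, and 0 members passed in limma without control replicate 2 (smallest adjusted p 0.665). Without control replicate 1 instead, 0 passed as well, and the smallest adjusted p was 0.0842, for Pcna, whose difference was then 1.57. In such fits the lone control array is assumed to vary like the BC alone arrays.

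Further genes of replication and mitosis, listed with earlier results of these data known, were measured beside the members. Of 40 other replication genes measured (of 43), 0 passed in limma, 17 had a higher and 23 a lower mean in BC alone, and 12 (30.0%) had groups without overlap, 3 higher and 9 lower, where 36.4% of all genes did (16.8% higher and 19.6% lower). The 3 of these with the smallest p were Orc1, a subunit of the origin recognition complex, with 4.17 and 3.75 against 4.43 and 5.05, Lig1, DNA ligase I, with 6.56 and 6.46 against 7.41 and 6.88, and Chaf1b, of chromatin assembly factor 1, with 6.39 and 6.33 against 7.23 and 6.74. E2f1, a transcription factor of the replication genes, had 4.73 and 4.52 against 5.19 and 4.75. These 4 lay lower on both BC alone arrays, at -0.78 to -0.345 (limma, adjusted p = 0.842). Orc1 came to -0.47 without control replicate 2, and Lig1 and Chaf1b to -0.37 and -0.38 without control replicate 1. Under quantile normalization Orc1, Lig1 and Chaf1b were at -0.686, -1.052 and -0.999, and under cyclic loess at -0.602, -1.039 and -0.989. The difference of E2f1, -0.345, came to -0.125 without control replicate 1 and to -0.112 with the mean of its probe sets. Of the 40 genes, 21 (52.5%) had both BC alone arrays below control replicate 1 and 8 above it, against 33.8% and 33.2% of all genes.

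Of 49 other mitosis genes measured (of 50), 0 passed, 15 had a higher and 34 a lower mean, and 21 (42.9%) had groups without overlap, 2 higher and 19 lower, against the same 36.4% (16.8% and 19.6%) of all genes. Those with the smallest p were Prc1, a protein of the spindle midzone, with 5.39 and 5.41 against 6.11 and 5.84, Cenph, of the inner kinetochore, with 3.38 and 3.28 against 4.31 and 3.67, and Smc2, a condensin subunit, with 5.11 and 5.13 against 5.39 and 6.22. They differed by -0.575, -0.66 and -0.685. With the mean of probe sets Prc1 came to -0.255 and Smc2 to -0.178. Under quantile normalization Prc1, Cenph and Smc2 were at -0.691, -0.488 and -0.904. Smc2 was at -0.27 without control replicate 2, and Cenph at -0.34 without control replicate 1. Foxm1, a transcription factor of mitotic genes, had 5.47 and 6.05 against 5.88 and 6.52, with overlapping groups. The median difference was -0.13 for this list and -0.095 for the other replication genes, and the median of all genes was -0.04. The other mitosis genes were dim, with medians of 4.39 to 4.65 on the arrays, against 4.95 to 5.1 for all genes. Of all dimmer genes 83.4% were higher on control replicate 2. Both BC alone arrays were below control replicate 1 for 25 of the 49 genes (51.0%) and above it for 10. Of all genes 33.8% and 33.2% were so. The source of the lower values was not tested. Among the 19 lower genes, Ttk and Ncaph (both -0.06) were nearly level with control replicate 1, while others, such as Ncapg (-0.775), were not.

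Regulators of the G1 phase were also measured. Of 14 G1 cyclins, kinases and Rb family genes, 0 passed, with 5 higher and 1 lower without overlap (42.9%, against 36.4% of all genes). Rbl2, a pocket protein that holds E2F targets down in resting cells, had 5.33 and 6.24 in BC alone and 4.73 and 4.59 in the control, a difference of 1.125 ± 0.40 (SE, limma, unadjusted p = 0.0344, adjusted p = 0.842). It came to 0.67 without BC alone replicate 2 and to 0.692 with the mean of its probe sets. Cdk2 had 6.04 and 5.90 against 5.35 and 5.12, and Cdk6 had 7.82 and 7.12 against 6.35 and 6.76. The difference of Cdk6, 0.915, was 0.565 without BC alone replicate 1, 0.578 with the mean of its probe sets, 0.38 under quantile normalization and 0.467 under cyclic loess. Ccnd1, cyclin D1, had 9.53 and 9.47 against 10.39 and 8.78, between its controls. The difference of Ccnd1, -0.085, was -0.814 under quantile normalization, -0.907 under cyclic loess and 0.04 under median centring.

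Of 13 Cdk inhibitors and antiproliferative genes measured (of 14), 0 passed, with 4 higher and 1 lower without overlap (38.5%, against 36.4% of all genes). Cdkn1a, p21, was bright on all arrays, with 10.65 and 10.21 in BC alone and 10.46 and 9.01 in the control. Cdkn1b, p27, had 8.43 and 8.68 against 8.18 and 7.28, and Ccng2, cyclin G2, which is raised in resting cells, 5.89 and 5.37 against 4.72 and 4.93. The difference of Ccng2, 0.805, fell to 0.195 with the mean of its probe sets, and that of Cdkn1b, 0.825, to 0.375 without control replicate 2, 0.191 under quantile normalization and 0.182 under cyclic loess. Cdkn2a, which encodes the INK4A and ARF tumour suppressors, had 3.41 and 3.77 in BC alone, below 4.37 and 5.01 in the control, at -1.10 ± 0.37 (SE, limma, unadjusted p = 0.0266, adjusted p = 0.842). Rbl2 and Cdkn2a were the genes of these 4 lists with an unadjusted p under 0.05, where 3.98% of all genes had one. Cdkn2a lay below the median of all genes on all 4 arrays.

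**Figure D4:**
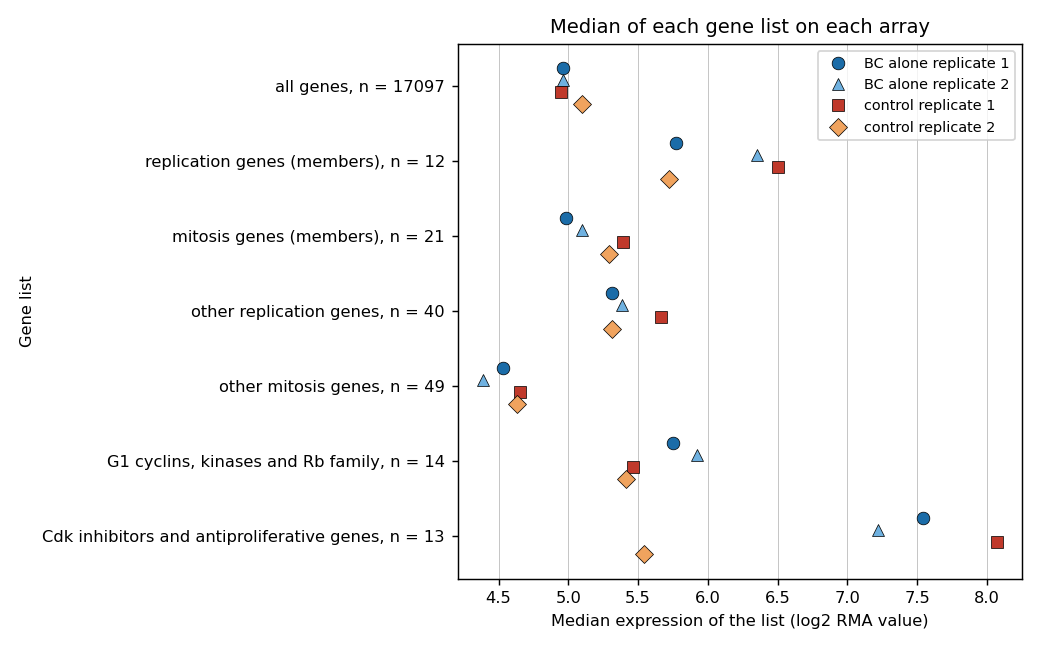
Median log2 RMA expression of each gene list on each array, with the number of measured genes beside the name of the list; lists hold different genes, so only symbols in the same row can be compared. The replication genes lie at 5.72 to 6.50 with the control arrays at both ends, and the inhibitor list has its lowest median, 5.54, on control replicate 2.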

How the data were processed

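The authors deposited 1 log2 expression value per probe set and array, made by RMA with affy (per the submitters' processing notes, without versions). RMA corrects background, normalizes by quantiles and summarises probes, and compresses large differences. Whether the 4 arrays were normalized together is not given in the sources used here, and control replicate 2 has another distribution than the rest. No detection calls came with the values. No 2 arrays held the same values (at most 771 of 45141 probe sets identical).

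The platform annotation gave 28898 probe sets 1 symbol, and the brightest by mean over the 4 arrays stood for each gene. Groups were compared in limma 3.58.1 under R 4.3.3 (lmFit, eBayes, no block), two-sided, adjusted over all 17097 genes at 0.05, after a test on simulated data. Members and lists were chosen with earlier results of these data known. All measured members are named. From each further list the text names the 3 genes with the smallest p and no overlap between groups, plus Cdkn1a, Ccnd1, E2f1 and Foxm1. Alternatives were each array left out, 3 scalings, the mean of probe sets, a filter on dim genes, a replicate block and 2 variance models. Replicate numbers were not taken to pair arrays, since the labels do not pair them. The deviations of same-numbered arrays correlated at -0.018, which with 2 arrays a group cannot exclude pairing. Promoters of at most 2 genes a class are printed, those of largest difference.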

Additional observations from a re-analysis of the deposited data

How the results depend on the processing

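No member passed an adjusted p of 0.05 as reported or under any of the 12 alternatives. Over all genes the count was 0 except with the replicate block (108 genes), which pairs arrays by number without support in the labels, and with an intensity trend (97). The smallest adjusted p among members was 0.821 with the replicate block and, over the fits without 1 array, lay between 0.0842 (without control replicate 1) and 0.999.

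Without 1 array the differences ranged as follows. The replication median ran from -0.348 to 0.46 and the mitosis median from -0.445 to 0.065. Replication members higher in BC alone numbered 5 to 11, those without overlap 4 to 11 and those also 2-fold 0 to 3. For mitosis members the ranges were 3 to 11, 10 to 14 and 1 to 5 (fewer arrays make overlap rarer). Over all genes 732 to 3824 were 2-fold without overlap, against 972. Without control replicate 2, both BC alone arrays lay below the control for 33.8% of all genes and above it for 33.2%. For the other arrays left out, the share of all genes without overlap was not computed. These counts are therefore not read as a result about the members. Mcm2 ran from -1.355 to 0.325, Mcm5 from -0.74 to 1.41, Mcm6 from -0.89 to 1.05, Pcna from -0.21 to 1.57, Rrm1 from -1.19 to 0.58, Rrm2 from -0.485 to 0.785, Tyms from -1.255 to 0.035, Ccne1 from -0.865 to 0.025 and Ccne2 from -0.025 to 0.355. Mki67 ran from -0.64 to 0.19, Ccna2 from -0.49 to 0.68, Ccnb2 from -0.24 to 0.72, Bub1 from -0.155 to 0.005, Plk1 from -0.13 to 0.11, Cenpa from -1.065 to 0.345, Kif11 from -0.875 to 0.065, Birc5 from -0.21 to 0.11, Nusap1 from -0.045 to 0.375, Cdc20 from -0.465 to 1.175, Ube2c from -0.02 to 1.15, Ccnd1 from -0.89 to 0.72 and Cdkn1a from -0.03 to 1.42.

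Signs that turned under quantile normalization gave -0.006 for Mcm5, -0.028 for Pcna, -0.015 for Ccna2, 0.092 for Bub1, 0.001 for Plk1, 0.005 for Birc5 and -0.026 for Cdkn1a. Under median centring they gave 0.05 for Bub1, 0.115 for Plk1, 0.075 for Birc5 and 0.04 for Ccnd1, and the mitosis median was -0.10. Under cyclic loess they gave -0.216 for Mcm5, -0.155 for Mcm6, -0.078 for Pcna, -0.033 for Rrm2 and -0.143 for Ccna2. They also gave 0.095 for Bub1, 0.011 for Plk1, 0.037 for Birc5 and -0.193 for Cdkn1a. There 4 replication members were higher, and 1, Tyms at -1.044, was lower by 2-fold without overlap. Mitosis members without overlap numbered 6 under quantile normalization and 6 under cyclic loess, against 3, and 2-fold genes without overlap 614 and 533. The share of all genes without overlap under these scalings was not computed, so the member counts have no baseline there. With the mean of probe sets Top2a was at -0.095, Ccna2 at -0.01 and Nusap1 at -0.012, with 4 mitosis members higher and 620 genes 2-fold without overlap. Among brighter genes only, 11 mitosis members were left, with a median of -0.01 and 0 without overlap. The cause of these changes was not tested. The sign of 12 members turned in none of the 12 alternatives. They were Mcm3, Mcm4, Mcm7, Cdk1, Aurka, Aurkb, Bub1b, Cenpe, Cenpf, Kif20a, Hmmr and Tpx2 (Tpx2 was at 0 without control replicate 2). The dim ones among them were absent from the brighter genes. The replicate block, the 2 variance models and the filter on dim genes leave a difference as it is, so no sign could turn there. Mcm3, Mcm7, Aurkb, Cenpe, Cenpf and Tpx2 each had a dimmer probe set of opposite sign.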
